A study of Mus musculus with 6 samples.

Results

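The Wnt ligands, receptors and inhibitors were the 57 genes whose symbols name a Wnt ligand, a Frizzled or LRP receptor, an R-spondin or its LGR receptor, a secreted inhibitor, a feedback inhibitor or a TCF/LEF factor, out of 23366 genes in the table. They were taken by symbol alone. Of the 57, 22 reached 1 TPM in at least 3 libraries and entered the test, 4 more reached 1 TPM in fewer libraries, and 31 stayed under 1 TPM in every library. TPM is a transcript abundance corrected for gene length and scaled to a fixed total of 1000000 in each library.

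RNA was sequenced from epithelial cells isolated from the submandibular salivary gland of mice aged 12 weeks, with 3 libraries for the p63 knockout genotype and 3 for wild type. Trp63 encodes p63, a transcription factor that basal cells of many epithelia depend on, and the study asked what it does for salivary progenitor cells. The labels name no allele, Cre driver, strain, sex or treatment, and do not say whether any mice were pooled, so a p-value here covers the spread between 6 libraries, which may in part be technical. Trp63 stood at 1.59, 0.816 and 1.76 TPM in the 3 knockout libraries, against 3.48, 1.85 and 3.68 TPM in the wild-type ones, a difference that limma's test did not call (adjusted p = 0.27). Which exons were deleted is not given in the labels. Knockout library 3 stood apart from the other libraries, with 10634 genes at 1 TPM or more against 11129 to 11235, and with 80.3% of its TPM in its 50 most abundant genes against 69.2% to 75.9%. Markers of the neighbouring parotid and sublingual glands summed to 84134, 70880 and 55381 TPM in knockout libraries 1, 2 and 3 and to 56329, 42247 and 45086 TPM in the wild-type ones, most of it from Car6 in every library. Without Car6, a division made after its values were seen, the sums were 7172, 75.8 and 370 TPM against 11411, 6506 and 538 TPM, highest in knockout library 1 and wild-type libraries 1 and 2.

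Wnt proteins are secreted, lipid-modified ligands that bind Frizzled receptors together with the co-receptors LRP5 and LRP6. Without a ligand, a complex built on AXIN marks beta-catenin for destruction. With a ligand, beta-catenin builds up, enters the nucleus and works with TCF and LEF factors. R-spondins bind LGR receptors and keep the ubiquitin ligases RNF43 and ZNRF3 from removing Frizzled from the cell surface. In the salivary gland, Wnt signals take part in branching during development and in duct formation and regeneration.

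None of the Wnt members passed limma's test over all genes. The 22 tested members gave 0 calls at an adjusted p under 0.05 and 6 at an unadjusted p under 0.05 (27.3%), where the test called 0.390% of all 11268 genes tested and 15.4% had an unadjusted p under 0.05. The member values fell mainly in 2 ways, and both are given here beside shares over all genes. The ligand gene Wnt4 and the inhibitor genes Sfrp1, Dkk3, Nkd1 and Nkd2 stood lower in every knockout library than in every wild-type library. These were 5 of 22 members (22.7%), where 15.6% of all genes were apart in that direction and 21.1% in either. In the other direction there were 0 members, against 5.42% of all genes. Wnt4 and Dkk3 overlapped between groups under each of 3 other scalings. The receptor genes Fzd5, Fzd6, Fzd9, Fzd4 and Lrp5, together with Axin1 and Tcf7l1, stood well above wild type in knockout libraries 1 and 2 but not in knockout library 3. Knockout libraries 1 and 2 were above every wild-type library, by any margin, for 56.5% and 55.2% of all genes. The share of all genes with the whole pattern, knockout library 3 included, was not counted. In bulk samples, fewer cells of a type and less RNA per cell cannot be told apart.

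The sequences just upstream of the starts of 5 of these genes are shown because the genes are examples of both, and because promoters of Wnt feedback genes often hold TCF/LEF sites. They are the 250 bases before the annotated start, written 5′ to 3′ along the gene, from RefSeq on GRCm38.p6 (the TPM values rest on another build, mm9). Nkd1 lies at chr8:88527383-88527632 on the plus strand, Nkd2 at chr13:73847632-73847881 on the minus strand and Wnt4 at chr4:137277385-137277634 on the plus strand. Fzd5 lies at chr1:64737751-64738000 on the minus strand and Tcf7l1 at chr6:72789046-72789295 on the minus strand. Capitals mark a match to the TCF/LEF core, searched as CTTTGA or CTTTGT on both strands.
Nkd1: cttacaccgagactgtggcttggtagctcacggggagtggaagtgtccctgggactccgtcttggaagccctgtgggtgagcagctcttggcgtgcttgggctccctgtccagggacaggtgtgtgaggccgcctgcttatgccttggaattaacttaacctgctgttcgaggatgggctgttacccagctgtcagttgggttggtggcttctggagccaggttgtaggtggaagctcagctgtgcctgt
Nkd2: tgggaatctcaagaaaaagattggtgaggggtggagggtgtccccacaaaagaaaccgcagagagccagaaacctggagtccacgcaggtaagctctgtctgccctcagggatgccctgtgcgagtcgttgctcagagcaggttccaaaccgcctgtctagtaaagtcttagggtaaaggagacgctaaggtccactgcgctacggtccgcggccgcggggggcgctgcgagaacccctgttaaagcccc
Wnt4: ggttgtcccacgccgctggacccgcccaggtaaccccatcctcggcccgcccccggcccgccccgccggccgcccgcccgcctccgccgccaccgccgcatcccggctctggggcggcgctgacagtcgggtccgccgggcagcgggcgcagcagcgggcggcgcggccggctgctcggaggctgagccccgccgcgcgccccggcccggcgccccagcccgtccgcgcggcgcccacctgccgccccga
Fzd5: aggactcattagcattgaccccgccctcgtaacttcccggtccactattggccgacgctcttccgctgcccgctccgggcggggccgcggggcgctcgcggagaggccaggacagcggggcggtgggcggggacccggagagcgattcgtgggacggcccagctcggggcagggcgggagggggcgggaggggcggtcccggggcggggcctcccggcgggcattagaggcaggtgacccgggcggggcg
Tcf7l1: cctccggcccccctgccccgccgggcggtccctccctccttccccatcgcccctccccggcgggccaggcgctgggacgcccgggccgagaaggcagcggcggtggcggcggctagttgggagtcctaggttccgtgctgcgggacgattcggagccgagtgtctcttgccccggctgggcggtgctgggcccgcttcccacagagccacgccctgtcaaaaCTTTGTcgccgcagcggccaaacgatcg
The Tcf7l1 window held 1 match, and those of Nkd1, Nkd2, Wnt4 and Fzd5 held 0. Over all 32851 distinct windows of this length in the table, 27.6% held at least 1 match. Windows were found for 38 of the 57 members, with 47 windows in all, and 10 of the 47 (21.3%) held a match. The p53 family half-site consensus, which p63 also binds, was found in 1 of the 47 windows, a window of Wnt11, and in 7.13% of all windows. GC content was 85.2%, 76.4% and 73.6% in the windows of Wnt4, Fzd5 and Tcf7l1. It was 58.4% each in those of Nkd1 and Nkd2, and was not computed over all windows. A match or its absence describes these letters only.

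Wnt4 was the one ligand gene expressed at a clear level in this gland. Its values were 31.6, 36.9 and 40.7 TPM for knockout libraries 1, 2 and 3, against 47.4, 52.5 and 69.1 TPM for the wild-type libraries in the same order, which is used throughout. All knockout values were thus below all wild-type values. The groups averaged 36.4 ± 4.62 and 56.3 ± 11.3 TPM (SD, n = 3 per group), a log2 fold change of -0.61 (SE 0.22, adjusted p = 0.26). Fold changes are on the log2(TPM + 1) scale, which understates the change of low genes. Wnt4 made up 94.2% to 94.8% of the summed TPM of all 19 Wnt genes in the wild-type libraries. In knockout libraries 1, 2 and 3 the share was 83.9%, 83.2% and 95.4%.

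The smaller share in knockout libraries 1 and 2 went with higher values of Wnt9a and Wnt2b. Wnt9a, a ligand gene known from joint formation, stood at 3.46 and 5.05 TPM in those libraries, at 0.378 TPM in knockout library 3, and at 0.384, 0.556 and 0.589 TPM in wild type. Wnt2b, a ligand gene of the beta-catenin branch, stood at 1.31, 1.34 and 0.132 TPM in the knockout, against 0.0648, 0.344 and 0.501 TPM in wild type. Both genes therefore had 2 knockout libraries above the wild-type range and knockout library 3 within or next to it. Neither reached 1 TPM in 3 libraries. When all 18137 genes above 0 were tested, their log2 fold changes were 1.15 (adjusted p = 0.39) and 0.50 (adjusted p = 0.48).

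The other 16 Wnt genes stayed under 1 TPM in every library, and Wnt1, Wnt3a, Wnt8a and Wnt9b were listed at 0 in all 6. Wnt6, Wnt2 and Wnt5b were lower in every knockout library than in every wild-type library. Wnt6, a ligand gene expressed in epithelia, stood at 0.183, 0.0336 and 0 TPM in the knockout against 0.560, 0.528 and 0.394 TPM in wild type. Wnt5b, a ligand gene of the non-canonical branch, stood at 0.0952, 0.524 and 0.413 TPM against 0.786, 0.695 and 0.736 TPM. Wnt11, another ligand of that branch, was the 1 ligand gene with all knockout values on the higher side (0.136, 0.200 and 0.225 TPM against 0.0415, 0.122 and 0.0584 TPM), and it overlaps the opposite-strand pseudogene Gm8398. TPM keeps no read counts, so the counting error of such low values is unknown. With no filter, Wnt6 had the smallest p of the 52 members above 0 (log2 fold change -0.48, adjusted p = 0.094). In that fit the groups were apart for 10 of the 52 members (19.2%) and for 18.5% of all genes, with 9 members lower (13.6% of all genes) and 1 higher (4.93%). None of the 52 passed limma's test, which called 0.0606% of all genes (12, or 23.1%, had an unadjusted p under 0.05, against 13.8% of all genes).

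**Figure D1:**
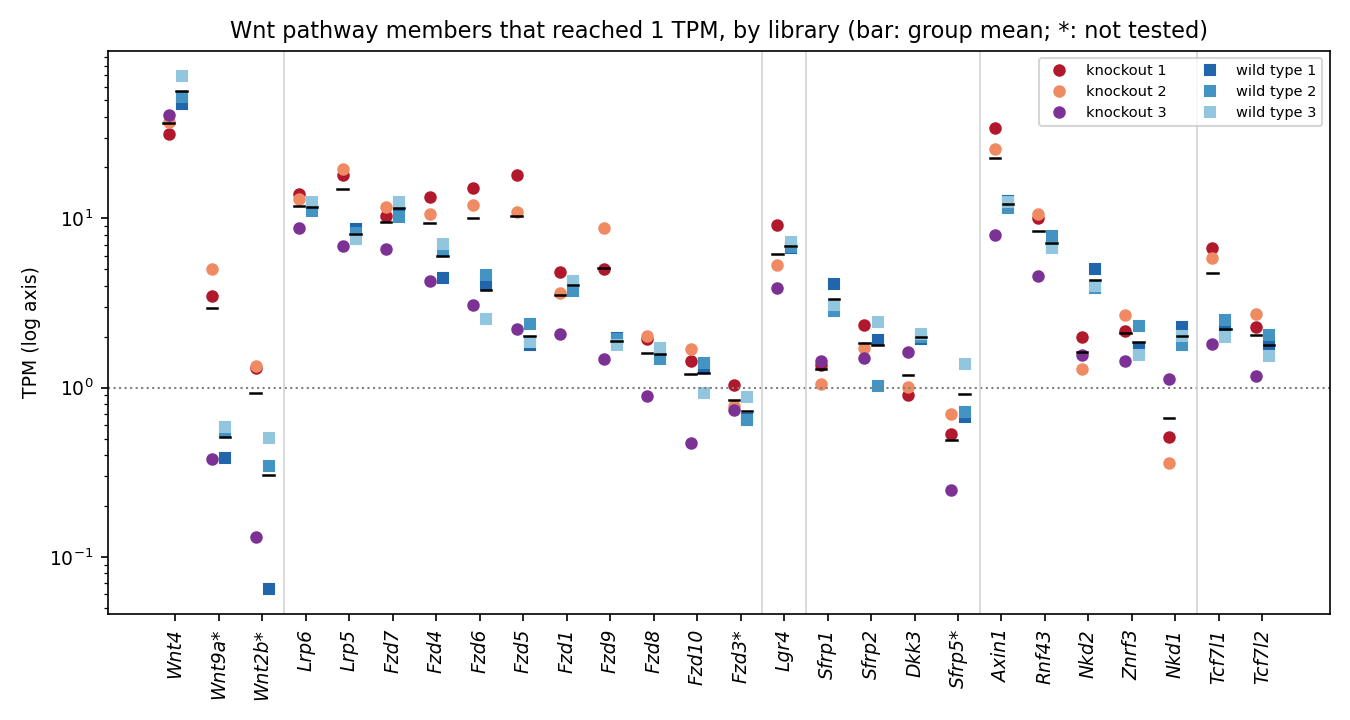
TPM on a log axis of the 26 members that reached 1 TPM in any library, ordered by role, with circles for the 3 knockout libraries, squares for the 3 wild-type libraries and black bars for group means. Wnt4 is the highest ligand gene in every library, and knockout library 3 (purple) lies apart from knockout libraries 1 and 2 for most receptor genes.

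Of the 12 receptor genes, 10 were tested, with 0 calls, 6 positive and 4 negative log2 fold changes. In wild type the order of the Frizzled genes was led by Fzd7 in all 3 libraries, at 11.7, 10.2 and 12.5 TPM. Fzd4 followed at 4.46, 6.43 and 7.02 TPM, and Fzd6 (4.09, 4.60 and 2.56 TPM) and Fzd1 (4.07, 3.73 and 4.24 TPM) overlapped each other. Fzd5, Fzd9, Fzd8 and Fzd10 lay between 0.926 and 2.37 TPM, and Fzd2 and Fzd3 stayed under 1 TPM in wild type. Fzd3 reached 1.03 TPM in knockout library 1 and was not tested. The summed Frizzled TPM was 32.4, 33.7 and 33.9 in the wild-type libraries. Knockout libraries 1 and 2 summed to 71.4 and 62.5, and knockout library 3 to 22.3, so the knockout values lay on both sides of the wild-type range.

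Fzd5, a Frizzled receptor with a known role in gut epithelium, differed most. It stood at 18.0, 10.9 and 2.22 TPM in the knockout, against 1.79, 2.37 and 1.86 TPM in wild type. Knockout libraries 1 and 2 were far above wild type, while knockout library 3 lay inside the wild-type range. The group values were 10.4 ± 7.92 TPM and 2.01 ± 0.316 TPM (SD, n = 3 per group), a log2 fold change of 1.59 (SE 0.59, adjusted p = 0.27). Fzd6, a receptor of planar cell polarity, stood at 15.1, 12.1 and 3.07 TPM against 4.09, 4.60 and 2.56 TPM (adjusted p = 0.37 for a log2 fold change of 1.03, SE 0.51). Fzd9 stood at 5.03, 8.77 and 1.49 TPM against 1.98, 1.94 and 1.77 TPM (adjusted p = 0.38 for a log2 fold change of 0.86, SE 0.46). For both genes knockout libraries 1 and 2 were the 2 highest of the 6.

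Fzd5, Fzd6 and Fzd9 together made up 53.5% and 50.9% of the Frizzled TPM in knockout libraries 1 and 2, 30.4% in knockout library 3, and 18.3% to 26.5% in wild type. The share of Fzd7 was 14.4%, 18.7% and 29.6% in knockout libraries 1, 2 and 3 and 30.3% to 36.8% in wild type. Shares within a library do not depend on how the library was scaled. By these shares all 3 knockout libraries lay outside the wild-type range, and knockout library 3 was the nearest to it, narrowly so for Fzd7. Fzd5, Fzd6 and Fzd9 had the highest ratios of knockout to wild-type mean among the Frizzled genes (5.18, 2.69 and 2.68). Their larger share in the knockout follows in part from that choice of genes and is no separate support. The highest Frizzled gene was Fzd5 in knockout library 1, Fzd6 in knockout library 2 and Fzd7 in knockout library 3. In exons, Fzd5 overlaps the opposite-strand gene Gm38058 and Fzd6 overlaps Gm26704 in GENCODE M21, and the strand setting of the counting is not given in the sources used here, so reads of such pairs cannot be told apart.

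**Figure D2:**
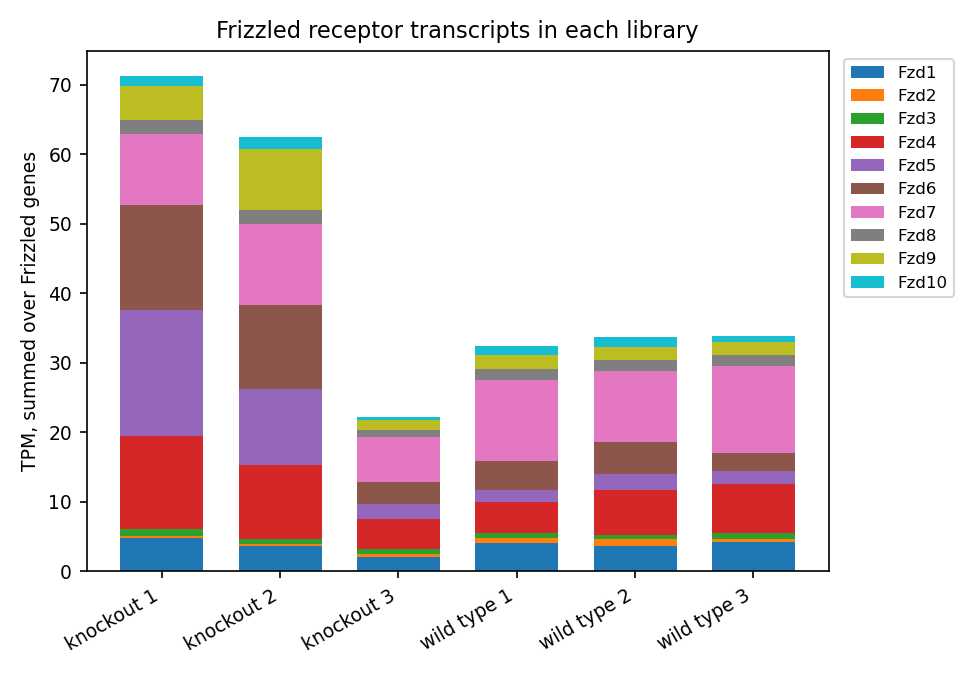
Stacked bars give the TPM of the 10 Frizzled genes in each library, starting at 0. Knockout libraries 1 and 2 reach 71.4 and 62.5 TPM with a large part from Fzd5, Fzd6 and Fzd9, knockout library 3 reaches 22.3 TPM, and the wild-type libraries reach 32.4 to 33.9 TPM.

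Fzd4, the receptor of the ligand Norrin in blood vessels, stood at 13.4, 10.6 and 4.25 TPM in the knockout, against 4.46, 6.43 and 7.02 TPM in wild type (adjusted p = 0.53 for a log2 fold change of 0.48, SE 0.40). The knockout values lay on both sides of the wild-type values. Fzd7 stood at 10.3, 11.7 and 6.58 TPM against 11.7, 10.2 and 12.5 TPM (adjusted p = 0.58 for a log2 fold change of -0.27, SE 0.26), and Fzd1, Fzd8 and Fzd10 had log2 fold changes of -0.20, -0.02 and -0.05. Of the co-receptor genes, Lrp5 stood at 18.1, 19.6 and 6.91 TPM against 8.62, 8.25 and 7.52 TPM (adjusted p = 0.40 for a log2 fold change of 0.68, SE 0.38). Lrp6 stood at 13.9, 13.0 and 8.75 TPM against 11.3, 11.0 and 12.5 TPM (adjusted p = 0.99 for a log2 fold change of 0.01, SE 0.24). For all of these genes knockout library 3 was the lowest of the 6 libraries.

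The R-spondin branch was represented by the receptor gene Lgr4 alone. Lgr4 stood at 9.16, 5.31 and 3.90 TPM in the knockout, against 6.68, 6.75 and 7.27 TPM in wild type (adjusted p = 0.71 for a log2 fold change of -0.22, SE 0.30), with knockout values on both sides of wild type. Lgr5, a marker of stem cells in the gut, did not exceed 0.0492 TPM and Lgr6 did not exceed 0.346 TPM. The R-spondin genes Rspo1, Rspo2, Rspo3 and Rspo4 stayed under 1 TPM in every library, the highest value being 0.918 TPM for Rspo3 in wild-type library 1. The targets of this branch were better expressed. Rnf43 stood at 10.1, 10.6 and 4.54 TPM against 6.85, 7.86 and 6.68 TPM (adjusted p = 0.83 for a log2 fold change of 0.14, SE 0.32) and Znrf3 at 2.16, 2.69 and 1.44 TPM against 1.69, 2.31 and 1.55 TPM (adjusted p = 0.81 for a log2 fold change of 0.11, SE 0.23).

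Of the 9 secreted inhibitor genes, 3 were tested. Sfrp1 encodes a secreted protein that resembles the ligand-binding part of Frizzled and binds Wnt proteins. It stood at 1.36, 1.05 and 1.43 TPM in the knockout, against 4.11, 2.84 and 3.09 TPM in wild type. The groups did not overlap, with 1.28 ± 0.203 TPM against 3.35 ± 0.670 TPM (SD, n = 3 per group), a log2 fold change of -0.92 (SE 0.20, adjusted p = 0.092). Dkk3, a member of the Dickkopf family that unlike its relatives is not a clear LRP blocker, stood at 0.903, 1.02 and 1.63 TPM against 1.93, 1.99 and 2.09 TPM (adjusted p = 0.31 for a log2 fold change of -0.47, SE 0.19). The groups did not overlap here either, although knockout library 3 lay close to wild type. Sfrp2, a second decoy of the same family, stood at 2.34, 1.70 and 1.49 TPM against 1.91, 1.02 and 2.44 TPM, fully interleaved (log2 fold change 0.05, adjusted p = 0.93).

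The other secreted inhibitors were low. Sfrp5 reached 1.37 TPM in wild-type library 3 and stood at 0.247 to 0.719 TPM elsewhere. Sfrp4 stood at 0.0718, 0.0396 and 0 TPM in the knockout against 0.527, 0.155 and 0.185 TPM in wild type, again without overlap. Wif1, Dkk1 and Dkk2 stayed under 1 TPM and Dkk4 was listed at 0 in all libraries. Summed over the 9 genes, secreted inhibitors stood at 5.71, 4.91 and 5.08 TPM in the knockout, against 9.85, 7.05 and 9.72 TPM in wild type. Most of this sum came from Sfrp1, Sfrp2 and Dkk3.

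Nkd1 and Nkd2, the Naked cuticle genes, encode inhibitors that bind Dishevelled inside the cell, and Nkd1 is a widely used target gene of beta-catenin. Nkd2 stood at 2.0, 1.30 and 1.56 TPM in the knockout, against 5.03, 3.88 and 3.99 TPM in wild type. Every knockout library was below every wild-type library, with 1.62 ± 0.356 TPM against 4.30 ± 0.636 TPM (SD, n = 3 per group). Its log2 fold change of -1.02 (SE 0.21) had the smallest adjusted p of the 22 members, 0.083. Nkd1 stood at 0.510, 0.359 and 1.12 TPM against 2.29, 1.78 and 2.01 TPM, also without overlap (0.664 ± 0.406 TPM against 2.02 ± 0.255 TPM, adjusted p = 0.11 for a log2 fold change of -0.88, SE 0.22). An exact two-sided permutation test of any such gene gives p = 0.1, the smallest that 3 libraries against 3 allow.

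Neither AXIN gene had groups apart. Axin1, the constant scaffold of the destruction complex, stood at 34.1, 25.8 and 8.0 TPM in the knockout, against 12.6, 11.5 and 12.5 TPM in wild type (adjusted p = 0.50 for a log2 fold change of 0.62, SE 0.47). Knockout libraries 1 and 2 were above and knockout library 3 below all wild-type libraries. Axin2, the AXIN gene that beta-catenin induces, was low throughout, at 0.475, 0.539 and 0.294 TPM against 0.354, 0.497 and 0.650 TPM, with overlapping groups.

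**Figure D3:**
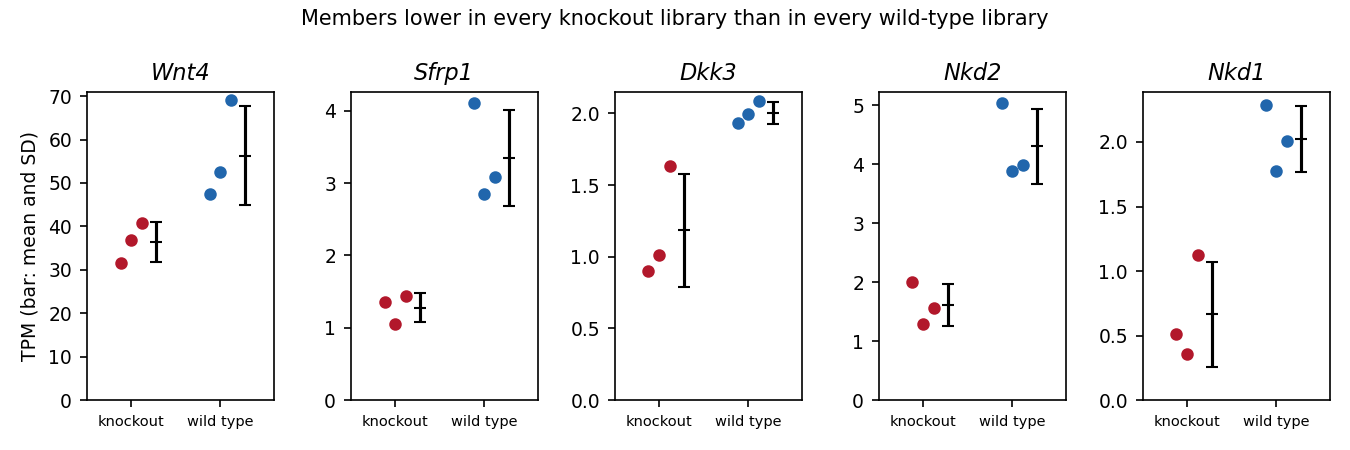
TPM of the 5 tested members whose knockout values all lay under their wild-type values, with points for libraries 1, 2 and 3 from left to right in each group and a bar for the mean and SD. The axes start at 0, and the ratio of the knockout mean to the wild-type mean is lowest for Nkd1 (0.328), Nkd2 (0.376) and Sfrp1 (0.383).

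Of the 4 TCF/LEF genes, 2 were tested. Tcf7l1, which mostly represses Wnt targets, stood at 6.71, 5.85 and 1.80 TPM in the knockout, against 2.16, 2.50 and 1.99 TPM in wild type (adjusted p = 0.39 for a log2 fold change of 0.72, SE 0.39). Knockout libraries 1 and 2 were above wild type and knockout library 3 just below it. Tcf7l2, the main factor of gut epithelium, stood at 2.27, 2.72 and 1.17 TPM against 1.76, 2.04 and 1.54 TPM (adjusted p = 0.83 for a log2 fold change of 0.10, SE 0.25). Tcf7 did not exceed 0.852 TPM and Lef1 did not exceed 0.132 TPM. Tcf7l1 shares exon sequence with the opposite-strand gene Gm15401.

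The members' split between knockout libraries followed that of all genes. Relative to the mean of wild type, all tested genes had a median of 0.27, 0.24 and -0.29 on the log2 scale in knockout libraries 1, 2 and 3, and the 22 members one of 0.24, 0.26 and -0.41. In knockout libraries 1 and 2, 14 and 13 of the 22 members were above every wild-type library (63.6% and 59.1%, against 56.5% and 55.2% of all genes). In knockout library 3 that held for 0 members (9.52% of all genes), while 19 members lay below every wild-type library (86.4%, against 66.9% of all genes). Over the 3 knockout libraries, 12 members had a positive log2 fold change (54.5%, against 57.4% of all genes) and 10 a negative one, with a median of 0.03, against a median of 0.09 over all genes. The groups were apart for 5 of the 22 members (22.7%), where they were apart for 21.1% of all genes. All 5 were lower in the knockout, where 15.6% of all genes were apart in that direction and 5.42% in the other.

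**Figure D4:**
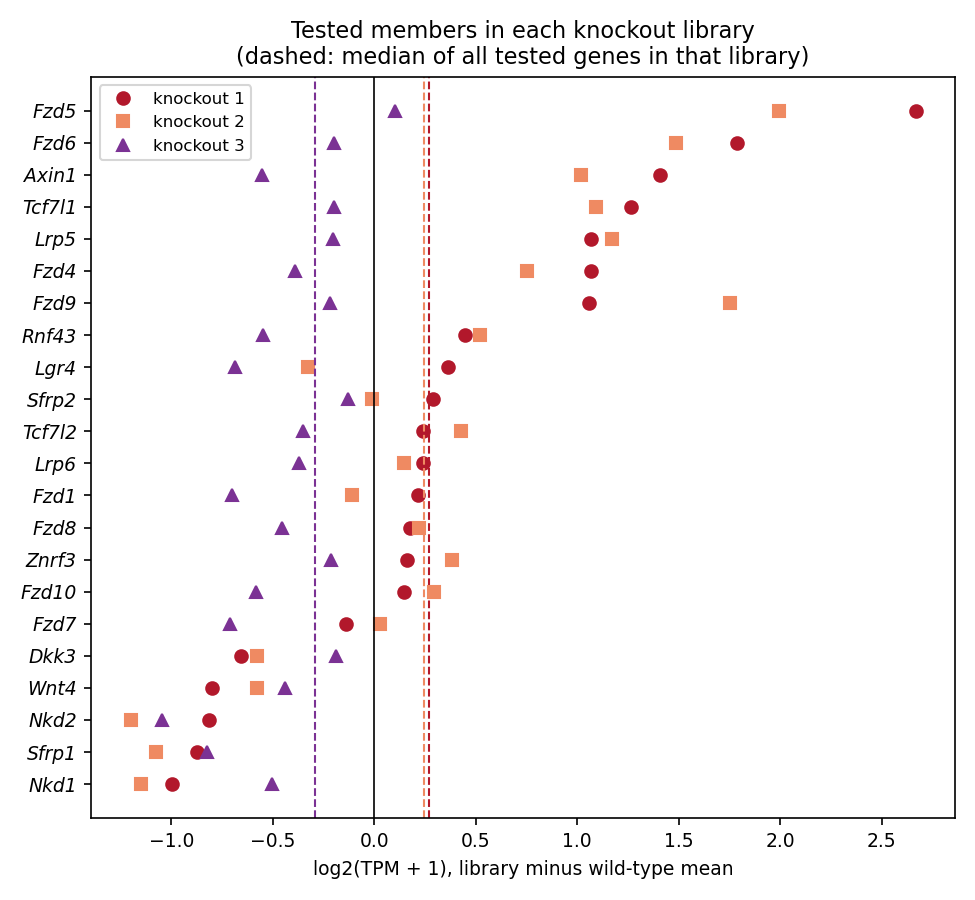
For each of the 22 tested members, the difference in log2(TPM + 1) between each knockout library and the wild-type mean, with dashed lines at the median of all tested genes in that library (0.27, 0.24 and -0.29). The symbols of knockout libraries 1 and 2 lie together at the right for Fzd5, Fzd6, Fzd9, Axin1, Tcf7l1 and Lrp5, and the triangles of knockout library 3 lie left of 0 for all members except Fzd5.

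TPM has a fixed total, so a library whose most abundant genes take a larger share has less left for all others. Under median-of-ratios scaling, which brings the median of all genes to 0.00, 0.00 and 0.01 in the 3 knockout libraries, Sfrp1, Nkd1 and Nkd2 were still lower in every knockout library. Wnt4 and Dkk3 were not, with knockout library 3 at -0.09 and 0.04 from the wild-type mean. Under the same scaling Fzd5 and Lrp5 stood higher in every knockout library (Fzd5 at 2.37, 1.74 and 0.36, and Lrp5 at 0.77, 0.90 and 0.11) and Fzd7 lower in every one (-0.43, -0.24 and -0.40). Quantile normalization and rescaling without the 50 most abundant genes placed these 8 genes in the same way. Under median-of-ratios scaling the groups were apart for 6 of the 22 members (27.3%) and for 28.1% of all genes. No member passed under any of the 3 scalings (lowest adjusted p 0.062, for Nkd2 under median-of-ratios scaling).

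Without knockout library 3, 13 of the 22 members passed limma's test (59.1%), but so did 45.5% of all genes. Higher in the knockout were 8 (36.4%, against 33.8% of all genes), and 5 were lower (22.7%, against 11.7%). The 8 were Fzd4, Fzd5, Fzd6, Fzd9, Lrp5, Axin1, Rnf43 and Tcf7l1, with Fzd5 at a log2 fold change of 2.33 (SE 0.22, adjusted p = 0.00071). Fzd6 was at 1.64, Fzd9 at 1.41, Axin1 at 1.21, Tcf7l1 at 1.18, Lrp5 at 1.12, Fzd4 at 0.91 and Rnf43 at 0.49. The 5 were Wnt4, Sfrp1, Dkk3, Nkd1 and Nkd2, with Nkd1 at -1.07 (SE 0.17, adjusted p = 0.0031) and Nkd2 at -1.01 (SE 0.19, adjusted p = 0.0057). Sfrp1 was at -0.97, Wnt4 at -0.69 and Dkk3 at -0.62. The Nkd2, Sfrp1 and Wnt4 values moved by under 0.1 when knockout library 3 was left out.

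**Figure D5:**
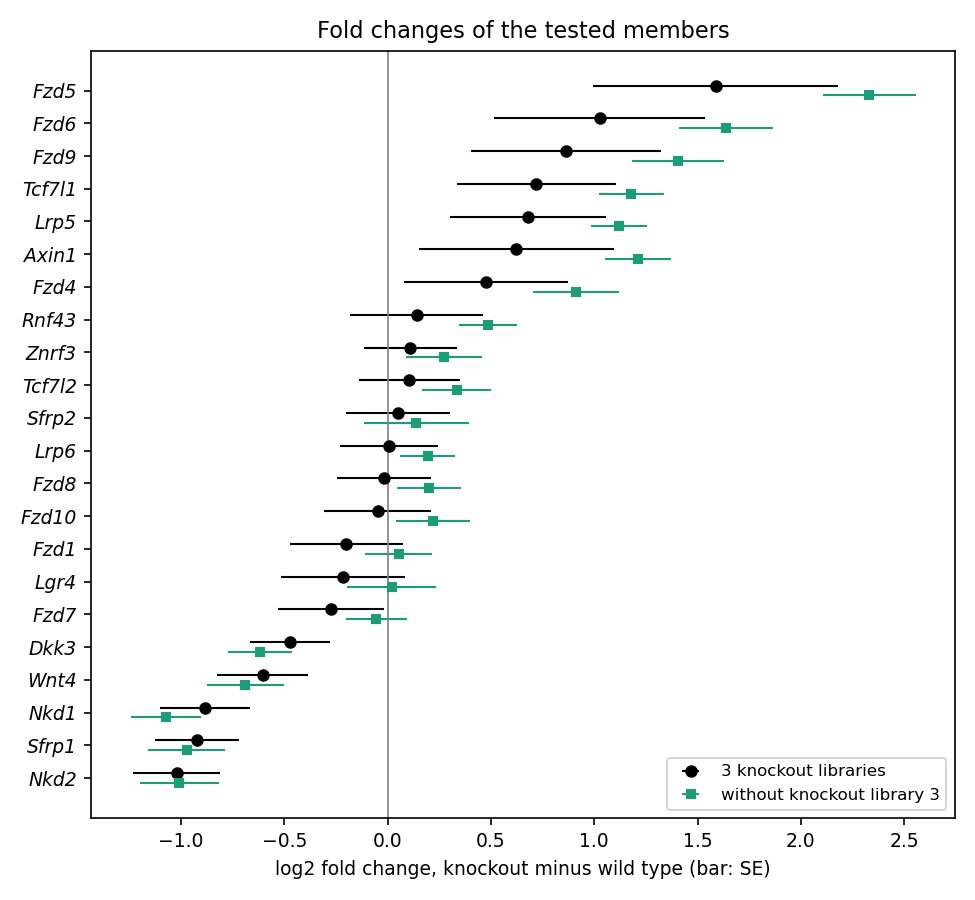
Log2 fold changes of the 22 tested members with bars of 1 SE, as black circles with all 3 knockout libraries and as green squares without knockout library 3. The squares lie to the right of the circles for the receptor genes and close to them for Nkd2, Sfrp1 and Wnt4.

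The markers of other cell types also differed between the groups, and their part in these results was not tested. The summed TPM of 11 fibroblast markers was 163 to 316 in the knockout and 370 to 475 in wild type, with 2 of 11 tested genes lower by limma's test and none at 0. That of 11 basal and myoepithelial markers was 134 to 247 against 463 to 553, with 2 of 9 tested genes lower. Markers of the granular duct summed to 12603 to 28628 against 90068 to 107229 (4 of 8 lower, with Ren1 listed at 0), and those of macrophages and leukocytes to 176 to 278 against 458 to 524 (0 of 8 called). Of all genes tested, 0.390% were called. Endothelial markers summed to 19.9 to 32.1 against 28.2 to 33.3. Acinar markers of the submandibular gland, which gave 132502 to 156545 TPM in wild type and 187253 to 240116 TPM in the knockout, were abundant in every library. Most of that sum came from Prol1 and Pip, the 2 of 7 tested acinar markers that were higher in every knockout library (5.42% of all genes were). Aqp5, Bhlha15, Lpo, Slc12a2 and Chrm3 overlapped between groups, with log2 fold changes of -0.08, -0.11, 0.20, 0.58 and 0.44. The fibroblast, basal, granular duct and leukocyte sums were thus lower in every knockout library, as were Wnt4, Sfrp1, Dkk3, Nkd1 and Nkd2. Not every marker followed its sum. Dcn, the highest fibroblast marker, overlapped between groups, as did Pdgfra, Pdgfrb and Fbn1, while 7 of the 11 were apart and lower. The macrophage markers C1qa, C1qb and Cd68 overlapped, while 5 of the 8 tested leukocyte markers were apart and lower. All 9 tested basal and myoepithelial markers and all 8 tested granular duct markers were apart and lower. Over all genes, 15.6% were apart in that direction. Without the 3 libraries richest in products of the neighbouring glands other than Car6 (knockout library 1 and wild-type libraries 1 and 2), Nkd2, Sfrp1 and Nkd1 had log2 fold changes of -1.04, -0.87 and -0.82. That leaves 2 knockout libraries against a single wild-type library, so these are values with little weight as a test. Markers of nerve and Schwann cells, mostly Sox10, summed to 110, 108 and 39.3 TPM in knockout libraries 1, 2 and 3 and to 38.2 to 45.4 TPM in wild type, which is the same split between knockout libraries as for Fzd5 and Axin1.

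Other genes of the pathway gave 0 calls among 55 tested, where the test called 0.390% of all genes. Over all genes tested, 57.4% had a positive log2 fold change. Of the 17 secretion and extracellular genes, 6 were tested, 1 positive and 5 negative. Wls, the carrier that brings Wnt proteins to the cell surface, varied within both groups (88.1, 41.8 and 33.8 TPM in the knockout against 98.6, 47.6 and 31.5 TPM in wild type). Tspan12, a partner of Fzd4 in Norrin signalling, was lower in every knockout library (19.8, 21.5 and 34.6 TPM against 47.4, 35.4 and 49.4 TPM, log2 fold change -0.80, adjusted p = 0.23), and Gpc4, a glypican, overlapped between groups (log2 fold change -0.22). Sostdc1, a secreted inhibitor of Wnt and BMP signals that was picked out after its values were seen, stood at 0.505, 0.477 and 1.25 TPM against 4.04, 2.07 and 3.07 TPM (adjusted p = 0.092 for a log2 fold change of -1.22, SE 0.26).

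Among the 19 tested genes of the beta-catenin machinery, 15 log2 fold changes were positive and 4 negative, where 57.4% of all genes were positive. Ctnnb1, which encodes beta-catenin itself, was close to even in all libraries (111, 108 and 93.5 TPM against 104, 109 and 111 TPM, adjusted p = 0.88 for a log2 fold change of -0.06, SE 0.17). The casein kinase genes Csnk1a1 (132, 120 and 61.9 TPM against 75.1, 67.1 and 81.4 TPM) and Csnk1d (71.4, 54.5 and 22.8 TPM against 27.6, 25.1 and 26.4 TPM) had the split between knockout libraries seen for Axin1. Of 12 tested nuclear cofactors 11 were positive and 1 negative. The negative one was Aes, a short Groucho-type corepressor (log2 fold change -0.28, adjusted p = 0.52), while Ctbp1 stood at 0.02 and Pygo2 at 0.52.

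Among 8 tested target genes of beta-catenin and TCF outside the member list, 4 were positive and 4 negative (57.4% of all genes were positive). Ccnd1, the gene of cyclin D1, stood at 3.13, 1.74 and 13.9 TPM in the knockout, against 21.8, 27.8 and 33.3 TPM in wild type (adjusted p = 0.12 for a log2 fold change of -2.35, SE 0.58). All knockout values were below wild type, and knockout library 3 was the nearest. Cd44 (log2 fold change -0.48, adjusted p = 0.52) and Cldn1 (log2 fold change -0.06, adjusted p = 0.94) overlapped between groups. Ephb3, picked out after its values were seen, was higher in every knockout library, narrowly so in knockout library 3. It stood at 6.61, 3.76 and 1.63 TPM against 1.43, 1.42 and 1.18 TPM (adjusted p = 0.28 for a log2 fold change of 0.97, SE 0.37). Of the 10 tested planar polarity and non-canonical receptor genes, 9 were positive and 1 negative. Daam1, a formin that links Dishevelled to the cytoskeleton, was higher in every knockout library, narrowly so in knockout library 3 (13.6, 14.5 and 6.81 TPM against 6.39, 6.48 and 6.29 TPM, log2 fold change 0.71, adjusted p = 0.32). Ryk (log2 fold change 0.22) and Vangl1 (log2 fold change 0.57) overlapped between groups. Without knockout library 3, 34 of the 55 genes passed, where 45.5% of all genes did.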

How the data were processed

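The authors deposited 1 table of TPM. Per the labels, raw counts were divided by gene length and scaled to library size. Per the submitters' processing notes, DESeq2 1.20.0, featureCounts 1.5.1, TopHat2 2.1.1 and Bowtie2 2.2.6 were used on mm9. The gene annotation, strand setting, handling of multiply mapped reads and read counts are not given in the sources used here, so depth is unknown and no counting error is given.

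Groups came from the genotype label. Genes that reached 1 TPM in 3 or more libraries (11268 of 23366) were fitted as log2(TPM + 1) with limma 3.58.1 in R 4.3.3 (empirical Bayes with a mean-variance trend, two-sided, Benjamini-Hochberg adjustment over all genes tested, threshold 0.05). The whole table was fitted and the members were read from it. Alternatives were a pseudocount of 0.1 or 0.5 TPM, a filter of 5 TPM or none, 3 other scalings, other limma settings, a block for neighbouring library index numbers, and leaving out libraries. No count test was run, because TPM are not counts.

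Members were named with their value in every library where they reached 1 TPM, but Fzd1, Fzd3, Fzd8, Fzd10 and Sfrp5 were given in part or by ranges. Wnt5b, Wnt6, Wnt11, Sfrp4 and Axin2 lie outside this rule and were chosen after their values were seen, the first 4 because their groups were apart. Pathway genes were named if they passed, and otherwise as the 3 of each list with the highest mean TPM. Sostdc1 and Ephb3 lie outside that rule and were chosen after their values were seen. The members and lists were chosen with earlier results of these data known. The procedure was also run on simulated data. These drew each gene independently and held no shift of a whole library, so the departure of knockout library 3 was not simulated. Promoter windows came from RefSeq (GRCm38.p6) and exon overlaps from GENCODE M21. Plots used matplotlib 3.10.9 (Python 3.11.15).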

Additional observations from a re-analysis of the deposited data

How the results depend on the processing

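No member passed in 15 of the 18 alternatives, of which the 5 TPM filter tested 8 members and no filter 52. The 15 include a fit without 1 library that called 0 genes over the whole table. Its lack of member calls therefore says nothing about the members. The fit without the 3 libraries richest in neighbouring gland markers had no member called either, but it sets 2 knockout libraries against a lone wild-type library that is assumed to vary like the knockout, and says little about stability. Members passed with array weights, which called 7 members higher and 5 lower (4822 of all genes and 30 of the pathway genes), and in the fit without knockout library 3. Over the fits that left out 1 library each, members called higher ranged from 0 to 8, members called lower from 0 to 5, pathway genes called from 0 to 34, members with groups apart from 5 to 17 (22.7% to 77.3%, against 24.7% to 67.1% of all genes), and all genes called from 0 to 5127. The count of 44 genes called over the whole table was 25 with a pseudocount of 0.1 TPM, 11 with no filter, 29 with the 5 TPM filter, 73 under median-of-ratios scaling, 72 under quantile normalization and 20 without the 3 libraries richest in neighbouring gland markers. The count of 5 members with groups apart was 10 of 52 with no filter (19.2%, against 18.5% of all genes), 1 of 8 with the 5 TPM filter (12.5%, against 19.8%), 8 of 22 under quantile normalization (36.4%, against 27.9%) and 11 of 22 without those 3 libraries (50%, against 45.0%). Fewer libraries separate more easily. The cause of these differences between fits was not tested.

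Wnt4, Sfrp1, Dkk3, Nkd1, Nkd2, Fzd5, Fzd6, Fzd9, Fzd7, Lrp5, Axin1 and Tcf7l1 kept their direction in every alternative that gave them a value. Changes of sign were as follows. Lrp6 was at -0.073 under median-of-ratios scaling, -0.17 under quantile normalization, -0.057 without the 50 most abundant genes and -0.21 without the 3 libraries. Sfrp2 was at -0.0033 under median-of-ratios scaling and -0.41 without the 3 libraries, where Fzd4, at 0.48 over all libraries, was at -0.039 and Fzd10 at 0.049. Fzd8 was at 0.044 and Fzd10 at 0.090 under quantile normalization, where Rnf43 was at -0.026, and under array weights they were at 0.17 and 0.23. In the fits without 1 library, Lrp6 ranged from -0.11 to 0.19, Sfrp2 from -0.17 to 0.22, Fzd8 from -0.14 to 0.20, Fzd10 from -0.22 to 0.22, Fzd1 from -0.41 to 0.052, Lgr4 from -0.51 to 0.020, Rnf43 from -0.050 to 0.49, Znrf3 from -0.026 to 0.27 and Tcf7l2 from -0.055 to 0.33.

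The replicate block for neighbouring library index numbers called 31 genes against 44, and 0 members. The labels state no pairing. Deviations of neighbouring libraries from their group means correlated at 0.17, 0.23 and 0.08 across genes, and each library correlated best with its own neighbour, which is a hint from the data and not from the design.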
